A study of Ovis aries with 36 samples.

Results

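The comparison described here is that of basal ganglia RNA between lambs kept on an external support system after preterm delivery and lambs delivered late preterm. Its libraries were chosen by their labels for region and arm, which gave 7 of the 36 libraries of the series: 5 supported lambs (labelled Experimental, lambs A to E) and 2 late preterm lambs (labelled Late pre-term ctrl, lambs F and G). The series holds 9 sheep (Ovis aries), each sampled once in hippocampus, motor cortex, basal ganglia and cerebellum, and each library is RNA from 1 piece of frozen tissue of 1 lamb. Supported lambs were delivered preterm, cannulated at once and kept on the EXTEND system, an extracorporeal support built around a fluid environment, until close to the gestational age of the late preterm arm. Late preterm lambs were delivered at 127 days of gestation and necropsied at once. Another arm, 2 lambs delivered preterm and necropsied at once (lambs H and I), entered the fit to share the estimate of the spread and is shown beside the compared arms. The labels give no gestational age for the preterm deliveries. Both late preterm lambs were male, 4 supported lambs were female and 1 (lamb C) was male, and the preterm arm held 1 female (H) and 1 male (I). Age at delivery, surgery and time on the system change together between the arms, so their parts cannot be told apart.

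The basal ganglia are a group of nuclei below the cortex, with the striatum as their main input, and take part in the control of movement, in habit and in reward. Most striatal neurons are inhibitory projection neurons that receive glutamate from the cortex and dopamine from the midbrain. The internal capsule, hippocampus, thalamus and the lining of the ventricles lie close by, so the cell makeup of a dissected piece depends on where it was taken. In RNA from such a piece, fewer cells of a type and less RNA per cell cannot be told apart.

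The files name genes by Ensembl identifiers and do not pair them with symbols. None of them (0 identifiers) matched the sheep reference table of 35057 genes, so the striatal, hippocampal, cortical, choroid plexus, myelin and other marker lists could not be read, and the labelled tissue could not be checked against defining markers. Genes are therefore described by identifier, level and behaviour across the 4 regions. Basal ganglia libraries held 10929328 to 17974635 counts assigned to genes, with lambs A, H and I at 10929328 to 13020225 and lambs B to G at 14192449 to 17974635. Levels are in CPM, counts scaled to a common library size.

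Some libraries lay nearer to another region of the other lambs than to their own label. By the correlation of each library's profile with the regional profiles of the other lambs, the basal ganglia libraries of B, D, E and H matched basal ganglia best, those of A, C, F and G matched hippocampus best, and that of I matched motor cortex best. Some margins were narrow. The correlations with hippocampus and basal ganglia were 0.111 and 0.109 for C and 0.284 and 0.249 for F, against 0.413 and 0.235 for A and 0.288 and 0.178 for G. Of the hippocampus libraries, those of supported lambs B and E matched basal ganglia best. Those of late preterm lamb G and preterm lambs H and I matched motor cortex best. The hippocampus libraries of B and E were part of the hippocampus profile used for the other lambs, F and G included. Matches without them are not given here. The region score below, from hippocampus (0) to basal ganglia (1), depended on them. Without them in its reference, basal ganglia library F went from 0.525 to 1.42 and G from 0.302 to 1.46. Counts without some of these libraries are given beside the results; the hippocampus comparison between arms was not refitted without G, which would leave 1 late preterm library.

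Between the compared arms, 48 of 16679 tested genes differed in the basal ganglia by edgeR (quasi-likelihood test with p-values adjusted by Benjamini-Hochberg over all of them, threshold 0.05), which is 0.288%. In supported lambs 14 of them were higher (0.0839%) and 34 were lower (0.204%). The differences were large. The median log2 fold change, supported minus late preterm, was 3.16 over the 14 and -2.26 over the 34, against 0.02 over all tested genes, and 47 of the 48 changed at least 2-fold (13.7% of all tested genes), 32 at least 4-fold (5.01%) and 7 at least 16-fold (1.31%). Adjusted p-values ran from 0.0111 to 0.0499, close under the threshold. Before adjustment 2524 genes (15.1%) had a p under 0.05. The call rested on single lambs: without one lamb the edgeR count was 14 (without A), 11 (B), 233 (C), 17 (D), 46 (E), 0 (F), 0 (G), 4 (H) or 4 (I). Adding sex to the model gave 0 called genes and 1085 at an unadjusted edgeR p under 0.05, and fitting the compared arms alone gave 4. Both late preterm lambs were male, so sex varied within an arm only through supported lamb C and between preterm lambs H and I. The fit with sex therefore cannot tell whether sex accounts for the 48 genes.

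**Figure D1:**
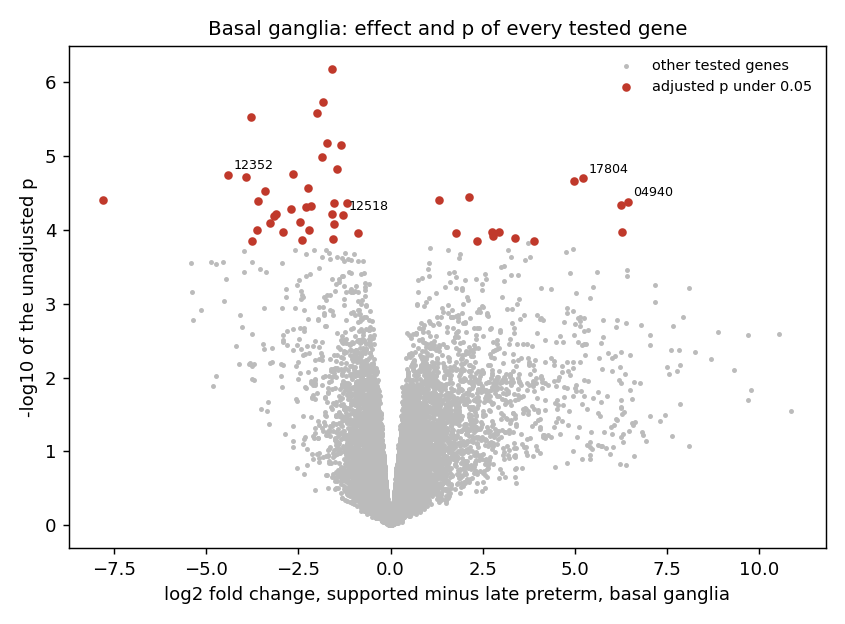
Each point is 1 of the 16679 tested genes, with the log2 fold change in basal ganglia (supported minus late preterm) on the x axis and the -log10 of its unadjusted p on the y axis. The 48 called genes are red, 14 to the right and 34 to the left, and the named genes carry the last digits of their identifiers; many grey points lie as far out as the red ones.

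Among the higher genes, ENSOARG00000004940 had the largest difference of those eligible to be named. Its basal ganglia level was 48.9, 86.1, 42.4, 133 and 65.0 CPM in supported lambs A to E, and 0.186 and 1.60 CPM in late preterm lambs F and G, from 3 and 22 counts. Preterm lambs H and I had 76.4 and 110 CPM. The late preterm pair was thus low and every other basal ganglia library was high, with no overlap between the arms. The log2 fold change, supported minus late preterm, was 6.42 ± 0.85 (SE), with an edgeR adjusted p of 0.0331. Leaving out lamb A, B, F, G, H or I ended that call (edgeR adjusted p 0.0264 to 0.235 over the 9 omissions), while the log2 fold change stayed between 5.53 and 8.59.

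In hippocampus and motor cortex of the same lambs this gene was not low in F and G. Their hippocampus levels of ENSOARG00000004940 were 106 and 91.2 CPM, and their motor cortex levels 88.5 and 91.2 CPM. In hippocampus the low libraries were those of supported lambs B and E, at 8.64 and 2.02 CPM, while A, C and D had 92.0, 62.2 and 119 CPM. In cerebellum the gene was between 0 and 0.45 CPM in 7 of the libraries, and at 33.4 and 30.3 CPM in those of supported lamb D and late preterm lamb G. Supported and late preterm libraries overlapped in each of these 3 regions.

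ENSOARG00000017804 had a like layout in basal ganglia at a lower level. In basal ganglia it had 10.7, 18.9, 9.91, 19.8 and 18.5 CPM in supported lambs A to E and 0.124 and 0.728 CPM in late preterm lambs F and G, from 2 and 10 counts. Preterm lambs H and I had 23.9 and 27.01 CPM, so only the late preterm pair was low. The log2 fold change of ENSOARG00000017804 was 5.21 ± 0.63 (SE, edgeR adjusted p 0.0280). It was also low in the hippocampus libraries of B and E (3.47 and 1.01 CPM, against 11.7 to 30.9 CPM in the other 7), and in cerebellum it was high in D and G alone (8.23 and 5.53 CPM). In motor cortex the arms were separate in the opposite direction, with 19.3 to 21.7 CPM in supported and 22.1 and 26.8 CPM in late preterm lambs (log2 fold change -0.27 ± 0.13, SE, edgeR adjusted p 0.330). Without lamb B, F, G, H or I the edgeR call for ENSOARG00000017804 was lost (adjusted p 0.0224 to 0.200 over the 9 omissions).

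The lower genes had the opposite layout, with ENSOARG00000012352 as the largest difference of those eligible. Supported lambs A to E had 17.6, 27.3, 13.0, 11.2 and 48.3 CPM in basal ganglia, and late preterm lambs F and G had 547 and 446 CPM. Preterm lambs H and I had 18.6 and 8.21 CPM. F and G stood far above all other basal ganglia libraries. The log2 fold change was -4.41 ± 0.52 (SE), with an edgeR adjusted p of 0.0280. In hippocampus the highest levels of ENSOARG00000012352 were again in supported lambs B and E, at 432 and 618 CPM, followed by late preterm lamb F at 174 CPM, with the other 6 libraries between 7.01 and 53.2 CPM. In motor cortex all 9 libraries lay between 8.27 and 22.1 CPM. Without lamb A, B, F, G, H or I the call was lost (edgeR adjusted p 0.0116 to 0.213 over the 9 omissions).

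A different pattern was seen for ENSOARG00000012518, which was lower in supported lambs in every region. It was named because its arms were separate in the same direction in hippocampus and motor cortex, as in 1 of the 31 eligible lower genes. Over all tested genes, 66 of 16679 (0.396%) were separate in one direction in basal ganglia, hippocampus and motor cortex. The eligible genes were already separate in basal ganglia, so the shares are not alike. The likeness of ENSOARG00000012518 across these regions follows from the naming rule and is a description. Its basal ganglia level was 10.2, 10.6, 12.8, 10.1 and 8.13 CPM in supported lambs A to E, 24.6 and 25.5 CPM in late preterm lambs F and G, and 33.0 and 40.2 CPM in preterm lambs H and I. Supported libraries were low and both control arms were high, without overlap. The log2 fold change against late preterm was -1.28 ± 0.18 (SE, edgeR adjusted p 0.0362) in basal ganglia, -1.28 ± 0.23 (edgeR adjusted p 0.864) in hippocampus, -1.75 ± 0.23 (edgeR adjusted p 0.0686) in motor cortex and -1.04 ± 0.25 (edgeR adjusted p 1) in cerebellum. The arms did not overlap in any of the 4 regions. The basal ganglia change of ENSOARG00000012518 differed from the hippocampus change by 0.01 ± 0.21 (SE, unadjusted edgeR p 0.945), and against preterm lambs in basal ganglia it was -1.82 ± 0.18 (edgeR adjusted p 0.0604). The call in basal ganglia was lost without lamb A, B, D, F, G, H or I (edgeR adjusted p 0.0256 to 0.366 over the 9 omissions).

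**Figure D2:**
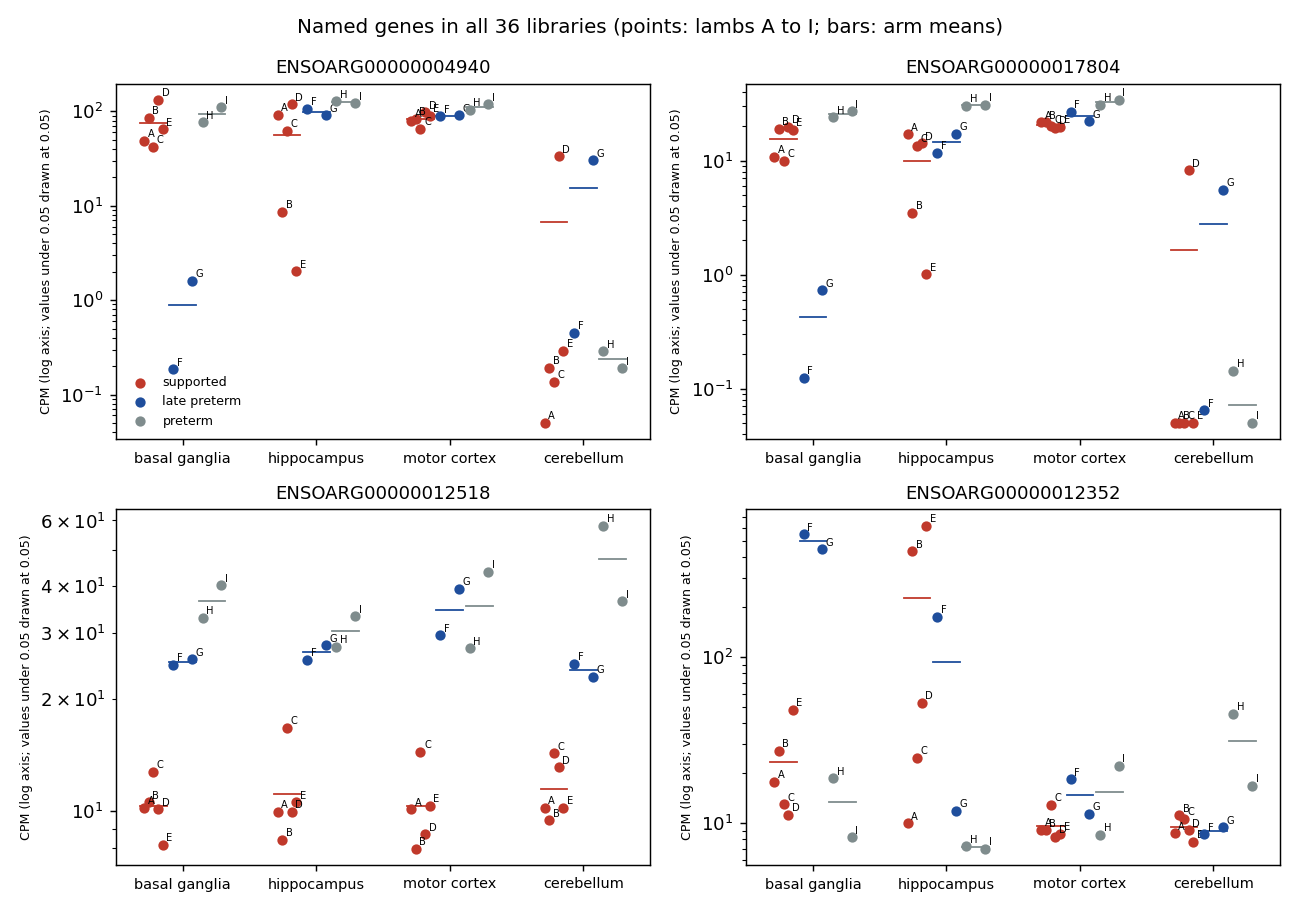
Level of the 4 named genes in CPM (log axis) in each of the 36 libraries, by region on the x axis and by arm in colour, with letters for lambs and bars for arm means. In basal ganglia F and G lie apart in the panels of ENSOARG00000004940, ENSOARG00000017804 and ENSOARG00000012352, and B and E lie apart in their hippocampus groups; ENSOARG00000012518 separates supported lambs in all 4 regions.

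The first layout was the common one among the 48 called genes. In 46 of them both late preterm libraries lay outside all 7 other basal ganglia libraries, preterm ones included, against 17% of all tested genes. They were below the other 7 in 13 of the 14 higher genes (background 8.75%) and above them in 33 of the 34 lower genes (8.28%). In 10 of the 48 they lay outside all 25 other forebrain libraries too (background 2.97%). All 48 had no overlap between the compared arms, against a background of 22.9% (11.9% with supported lambs above and 11% with them below). A place outside all 7 requires that separation, so the 17% is a low background for the 48. Of all tested genes 3817 had the separation, and in 2841 of them both late preterm libraries lay outside all 7. On a scale with the supported mean at 0 and the late preterm mean at 1, the preterm libraries had a median place of 0.017 (H) and -0.022 (I) over the 48 genes, and each was nearer the late preterm mean in 4 of 48. The call used the late preterm libraries, so their place is a description. The median log2 fold change, late preterm minus preterm, was -2.81 over the 14 genes and 2.15 over the 34, against -0.02 over all tested genes. That contrast shares lambs F and G with the main one. By edgeR it called 2 genes (0.012%; 2717, or 16.3%, at an unadjusted p under 0.05), both among the 48, and supported against preterm called 0 genes (2028, or 12.2%, at an unadjusted p under 0.05).

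F and G were also the most alike pair of basal ganglia libraries. Their log2 CPM correlated at 0.981 over genes, the highest of the 36 pairs, while other pairs ranged down to 0.897. Their counts still differed beyond sampling noise (chi-square per degree of freedom 21.4), so they were treated as separate libraries. On the first principal component, which held 32.6% of the variance, F and G scored 64.7 and 66.2 and supported lambs scored -76.9 to 26.4.

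In the other regions of the same lambs the edgeR test between supported and late preterm lambs called 0 genes, with 796 (4.86%) in hippocampus, 2661 (16.5%) in motor cortex and 194 (1.19%) in cerebellum at an unadjusted p under 0.05. Of the 48 genes, the arms were separate in the basal ganglia direction in 1 in hippocampus, 8 in motor cortex and 3 in cerebellum, and separate in the opposite direction in 1, 3 and 2. The background for separation in either direction was 9.96%, 20.6% and 8.53%. In hippocampus the sign was the same as in basal ganglia for 2 of the 14 higher and 4 of the 34 lower genes, with median log2 fold changes of -0.25 and 0.53. In motor cortex the medians were 0.15 and -0.18, with the same sign in 10 of 14 and 20 of 31 genes tested there. Over all tested genes the medians were 0.01 in hippocampus and -0.01 in motor cortex, and the share with the same sign is not given here.

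The opposite sign in hippocampus went with the libraries of supported lambs B and E. Both lay below the other 7 hippocampus libraries in 12 of the 14 higher genes (background 10.7%) and above them in 26 of the 34 lower genes (background 11.5%). The median log2 difference of B and E from the other 7 was -2.52 over the 14 and 2.02 over the 34, against 0.02 over all tested genes. With B and E left out, the median hippocampus difference in log2 CPM, supported minus late preterm, went from -0.72 to 0.24 over the 14 genes and from 0.30 to -0.61 over the 34. Libraries B and E were singled out after the data were seen.

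**Figure D3:**
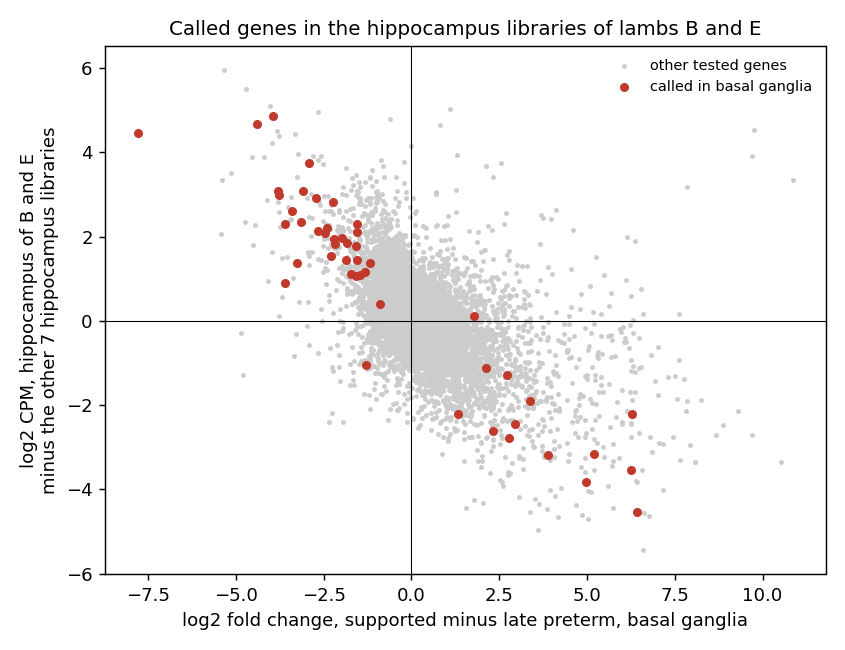
Each point is a tested gene, with its log2 fold change in basal ganglia (supported minus late preterm) on the x axis and, on the y axis, its mean log2 CPM in the hippocampus of supported lambs B and E minus the mean of the other 7 hippocampus libraries. The 48 called genes (red) lie mostly at the upper left and lower right, with medians of 2.02 for the 34 lower and -2.52 for the 14 higher genes.

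Averaged over each set, the level in every library showed the same grouping. Over the 14 higher genes the mean log2 CPM in basal ganglia was 5.29 to 6.16 in supported, 5.42 to 5.66 in preterm, and 2.15 and 2.46 in the late preterm lambs F and G. In hippocampus B and E had 3.59 and 2.95 and the other libraries 5.46 to 5.98, and in motor cortex all 9 libraries were between 5.59 and 5.93. In cerebellum D and G had 4.65 and 4.44 and the other libraries 1.94 to 2.58. The 14 genes were thus at one level across most forebrain libraries and low in F and G of the basal ganglia, B and E of the hippocampus and most of the cerebellum.

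Over the 34 lower genes, the mean log2 CPM in basal ganglia was 3.07 to 3.32 in supported, 3.10 to 3.28 in preterm, and 5.65 and 5.68 in late preterm lambs. In hippocampus the highest libraries were those of E (5.80), B (5.15) and F (4.64), with the rest between 2.98 and 3.61. Motor cortex lay between 2.78 and 3.10 and cerebellum between 2.54 and 2.96 in all 9 lambs. High levels of this set were therefore found in 5 libraries, 2 of the late preterm basal ganglia and 3 of the hippocampus.

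**Figure D4:**
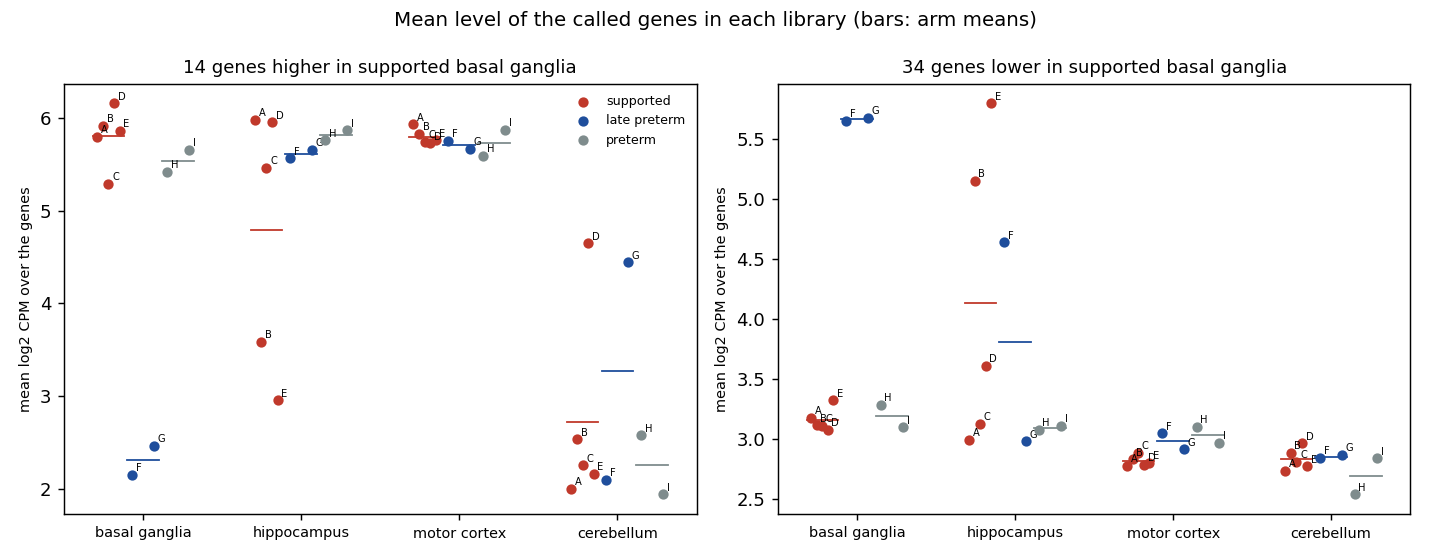
Mean log2 CPM over the 14 higher genes (left) and the 34 lower genes (right) in each of the 36 libraries, by region and arm, with letters for lambs and bars for arm means. F and G lie apart in basal ganglia, B and E in hippocampus, and D and G in cerebellum for the 14 genes only.

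Whether the called genes also differ between regions was read from contrasts that use no basal ganglia library. Between cerebellum and the mean of hippocampus and motor cortex, leaving out the cerebellum libraries of D, G and H, which stood apart, 13 of the 14 higher genes were lower in cerebellum (edgeR, lamb as block), against 33.7% of all tested genes (66.9% differed in either direction). The median log2 fold change over the 14 was -3.50. With all 27 libraries it was 12 of the 14 (background 25.3%), and with the hippocampus libraries of B and E also left out it was 13 (background 33.9%). Of 31 lower genes tested there, 14 were lower and 4 were higher in cerebellum (background 33.3% higher). Without the hippocampus libraries of B and E, 14 were lower and 8 were higher (background 33.8% higher).

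Between hippocampus and motor cortex edgeR called 34 of 15432 genes (0.22%), none of them among the 48. By sign, 30 of 31 of the lower genes were higher in hippocampus than in motor cortex, against 50.3% of all genes, with a median log2 fold change of 0.79. Without lambs B and E it was 26 of 30 genes, with a median of 0.30, and without G, H and I as well 26 of 30, with a median of 0.46 (background 50.8%). For the higher genes it was 2 of 14 with all lambs, 7 of 14 without B and E and 6 of 14 without all 5. Basal ganglia as labelled differed from motor cortex in 2263 genes (14.2%) and from hippocampus in 1 gene (0.00629%; 1840 genes before adjustment).

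A score placed each basal ganglia library between the other lambs' hippocampus (0) and basal ganglia (1), over the 500 genes that separated these regions most in the other lambs. Supported lambs A to E scored 0.145, 1.36, 0.204, 1.20 and 1.10, late preterm lambs F and G 0.525 and 0.302, and preterm lambs H and I 0.481 and -0.218. On this scale the supported arm held the highest and the lowest score of the compared lambs, and F and G lay between them. The means were 0.801 ± 0.580 (SD, n = 5) and 0.414 ± 0.158 (SD, n = 2), a difference of 0.388 (two-sided exact permutation test, p = 0.571). The 21 splits allow no p under 0.0952, so this test could not reach 0.05 and does not show that the dissected pieces were alike. With motor cortex as the reference, the difference was -0.225 (0.923 ± 0.329 against 1.15 ± 0.0346; exact permutation p = 0.476).

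The direction turned with the reference. With the hippocampus libraries of B and E left out of the 0 point, a choice made after the data were seen, supported lambs A to E scored 0.224, 1.24, 0.575, 0.938 and 1.12, late preterm lambs F and G scored 1.42 and 1.46, and preterm lambs H and I scored 0.550 and -0.120. F and G then lay above every other basal ganglia library. The means were 0.821 ± 0.418 (SD, n = 5) and 1.44 ± 0.0275 (SD, n = 2), a difference of -0.618, at the smallest p that the exact permutation test can give (0.0952). With the hippocampus libraries of G, H and I left out as well, the difference was -0.332 (exact permutation p = 0.286). The piece of tissue and the arm therefore cannot be told apart for F and G.

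The count of called genes was then taken with the score in the edgeR model. With the first score 42 genes were called, 18 higher and 24 lower, and 23 of them were among the 48. With the score that leaves out the hippocampus libraries of B and E it was 24, 8 higher and 16 lower, and 9 of them were among the 48. Without A and C, the supported libraries that matched hippocampus best (C by a narrow margin), the count rose to 450 (279 higher, 171 lower), 47 of them among the 48. Without B, D and E, which matched basal ganglia best, it was 47, of which 12 were among the 48. These fits, except that with the first score, were chosen after the libraries were seen.

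**Figure D5:**
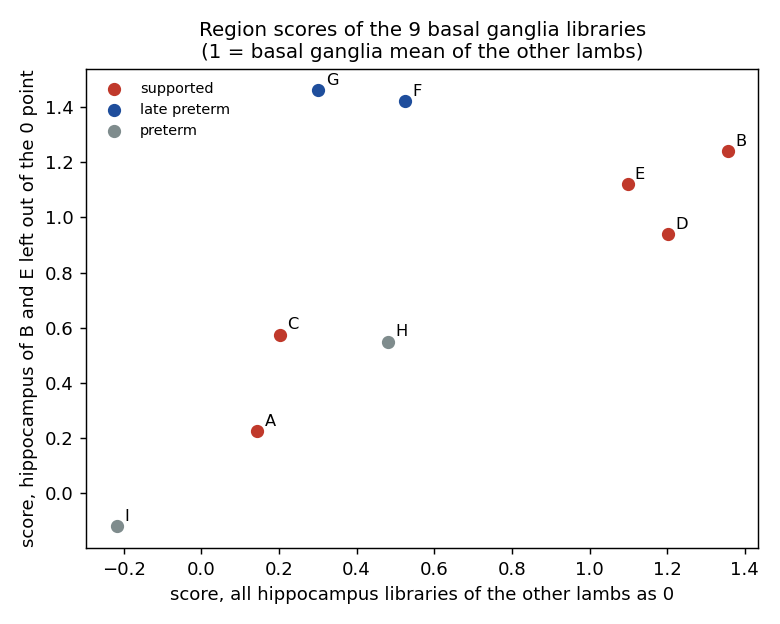
Score of each of the 9 basal ganglia libraries, coloured by arm, where 1 is the basal ganglia mean of the other lambs and 0 their hippocampus mean, with all hippocampus libraries (x) or without those of B and E (y). Late preterm lambs F and G lie in the middle of the x axis (0.525 and 0.302) and at the top of the y axis (1.42 and 1.46).

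The change between arms was then compared between regions in a single edgeR model over 27 forebrain libraries with lamb as a block. The basal ganglia change differed from the hippocampus change in 4 of 17150 genes (0.0233%; 4262, or 24.9%, at an unadjusted p under 0.05) and from the motor cortex change in 0 genes (2930, or 17.1%, at an unadjusted p under 0.05). None of the 4 was among the 48. Of the 48, 47 had an unadjusted p under 0.05 against hippocampus and 41 against motor cortex, and 0 passed adjustment, with smallest adjusted p-values of 0.0602 and 0.180. These genes were chosen for their change in basal ganglia, so the counts are not independent of that choice. Without the hippocampus libraries of B and E, 41 genes differed from the hippocampus change, 12 of them among the 48, and 290 from the motor cortex change, 28 of them among the 48. Leaving out 1 lamb moved the first count from 4 to 0 (A, B, G, H or I), 1 (F), 8 (D), 22 (E) or 560 (C), and the second from 0 to 1 (E).

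Most large differences in basal ganglia were not called. A fitted change of at least 4-fold was found in 836 genes (5.01%), 696 higher and 140 lower in supported lambs, of which 32 were called, and one of at least 16-fold in 218 genes (1.31%), of which 7 were called. Of the 804 uncalled genes past 4-fold, the arms overlapped in 265 (22.9% of all tested genes had no overlap). The SD of log2 CPM among supported lambs was at least 1 in 545 of the 804, against 1 of the 48 called genes. The median SD was 1.25 in the uncalled, 0.41 in the called and 0.35 in all tested genes. The edgeR call weighs a change against the spread among lambs, so the lower SD of the called genes follows in part from the call. Of the 684 higher uncalled genes, the most extreme supported library was that of D in 227, E in 172, B in 122, A in 103 and C in 60, and 365 had a mean under 1 log2 CPM. The shares over all tested genes are not given here, so these counts only describe the 684 genes. Many of the large uncalled differences were thus at a low level or spread widely among the supported lambs.

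Genes whose arms were separate in the same direction in all 4 regions numbered 34 of 16679 (0.204%), 19 higher and 15 lower in supported lambs, and 12 of them differed at least 2-fold in each region. ENSOARG00000012518 was the one called in basal ganglia. In 12 of the 34 both preterm libraries were on the late preterm side in every region. The largest of the 34 was ENSOARG00000025367, picked after its values were seen. It had 157, 330, 228 and 189 CPM in the basal ganglia of the female supported lambs A, B, D and E, 245 CPM in the female preterm lamb H, 0.447 and 0.730 CPM in the males C and I, and 0.310 and 0.0728 CPM in the males F and G. It was high in females and near 0 in males, and its edgeR adjusted p between the arms was 0.218. In the 48 genes the male supported lamb C was nearest to the late preterm arm among supported lambs in 15, E in 12, A and B in 8 each and D in 5. The shares over all tested genes are not given here. Females and males did not overlap in basal ganglia in 1 of the 48 genes, against 588 of 16679 tested genes. A part of sex in the difference between the arms was not tested by these counts.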

How the data were processed

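The authors deposited unstranded read counts per gene, made with SeqKit (quality), fastp (trimming) and STAR (alignment and counting) against Ensembl release 107 of the sheep genome, per the design text of the series; the submitters' processing notes also name fastp and STAR. No source used here gives tool versions. Without strand, reads of overlapping or antisense genes cannot be told apart. The table of counts holds 27054 genes, of which 2828 were at 0 in every library.

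Arm, region, lamb and sex came from the labels. Counts were fitted per region over 9 libraries in edgeR 4.0.16 (R 4.3.3) with TMM factors, the filterByExpr filter and quasi-likelihood tests, with a threshold of 0.05 after Benjamini-Hochberg adjustment. Fits between regions had lamb as a block, since the regions come from the same lambs. Levels are CPM, and log2 CPM uses a prior count of 2. DESeq2 1.42.0, RLE scaling, no filter, covariates and left-out libraries were the alternatives.

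Tested on simulated counts for the 16679 genes of the basal ganglia comparison, edgeR recovered 10% of 2-fold and 63% of 4-fold changes, with 4 false calls. Changes were planted only in genes above a minimum mean CPM, with counts drawn around a common mean for each gene. Changes in genes at lower levels, and libraries from differing pieces of tissue, were not covered. Lambs are separate animals. The labels give no batch.

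The comparison, the lists and the rules were chosen with earlier results of these data known. Genes were named from the called genes with a mean of at least 1 log2 CPM, no overlap between the arms and at least 7 counts in a library of the lower group. Per direction these were the largest change among genes separate in hippocampus and motor cortex too, and the largest among genes overlapping there, or the next largest where a class was empty. Marker and pathway lists were not used because no identifier could be paired with a symbol.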

Additional observations from a re-analysis of the deposited data

Results flagged for a closer look

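In 17 groups of 5 supported libraries checked, 3 held a library far from the other 4, measured as its gap to the nearest library over the group's range. Chance alone gives about 1 in 20 for normally spread values in independent groups. These groups share libraries, so that rate is only a guide. The gap was 0.794 for ENSOARG00000004940 and 1 for ENSOARG00000017804 in the same library, the cerebellum of lamb D. It was 0.791 for ENSOARG00000012352 in the motor cortex of lamb C. For ENSOARG00000017804 the other 4 cerebellum libraries were at 0 counts, so the gap of 1 follows from that floor.

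For 4 genes, named because they are few, the supported minus late preterm change differed between basal ganglia and hippocampus in edgeR with lamb as a block. The difference was 5.41 ± 0.81 (SE, edgeR adjusted p 0.0415) for ENSOARG00000010199, 2.00 ± 0.31 (edgeR adjusted p 0.0425) for ENSOARG00000001656, 1.72 ± 0.24 (edgeR adjusted p 0.0362) for ENSOARG00000021139 and 3.59 ± 0.51 (edgeR adjusted p 0.0362) for ENSOARG00000019551. In each, late preterm lambs were lower in basal ganglia than in hippocampus, as for ENSOARG00000019551 with means of 6.57 and 60.2 CPM, against 33.3 and 26.7 CPM in supported lambs. In basal ganglia alone none of the 4 was called. The supported hippocampus arm included B and E, which matched basal ganglia best. For ENSOARG00000010199 their hippocampus levels were 2.65 and 3.86 CPM, against 13.3, 9.25 and 20.45 CPM in A, C and D. For ENSOARG00000001656 they were 6.94 and 4.69 CPM, against 7.76, 6.975 and 7.28 CPM. Values for the 4 genes without these libraries are not given here.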

How the results depend on the processing

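The count of 48 called genes in basal ganglia became 4 with the compared arms alone, 0 with sex as a covariate, 14 with depth group as a covariate, 24 with the region score that leaves out the hippocampus of B and E, 450 without the libraries of A and C and 1028 with DESeq2 (678 higher, 350 lower, all 48 included). The depth groups were A, H and I against B to G, so lamb A alone differed in depth within an arm. The depth fit therefore amounts to leaving out A, which also gave 14, and is not a separate check of depth. Leaving out 1 lamb gave 0 to 233 (11 without B, 17 without D). It was 46 with RLE scaling, 68 with no filter, 42 with the first region score and 47 without B, D and E. The median absolute change of the 48 was 2.38 to 2.63 (log2); their sign under left-out lambs is fixed by the choice of genes whose arms do not overlap. The 4 genes whose change differed from hippocampus became 1 with no replicate block for the lamb, 3 with all 36 libraries, 41 without the hippocampus libraries of B and E and 0 to 560 without 1 lamb (22 without E). Against motor cortex the count of 0 became 290 without those libraries and was 0 to 1 without 1 lamb, and it was 0 with no replicate block. Nothing pairs the arms, which hold different lambs. The difference in region score reversed to -0.225 with motor cortex as the reference, to -0.618 without the hippocampus of B and E in the reference and to -0.332 without that of B, E, G, H and I, and was 0.249 to 0.552 without 1 lamb. The named genes lost the adjusted call in 11 (ENSOARG00000004940), 8 (ENSOARG00000017804), 13 (ENSOARG00000012518) and 10 (ENSOARG00000012352) of the settings. The causes of these changes were not tested. With F or G left out, the lone late preterm library is assumed to vary like the other arms. The late preterm arm of 2 male lambs limits every result, and low-level genes are limited by depth.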
